A study of Mus musculus with 12 samples.

Results

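Interleukin-6 and oncostatin M are secreted relatives that signal through one shared receptor chain, and the 5 genes described here are 3 of the ligands (Il6, Osm and Lif), the interleukin-6 receptor chain (Il6ra) and the shared signal-transducing chain gp130 (Il6st). They were chosen by gene name from the table of counts per gene, 5 of 54532 genes, and all 5 had enough counts to be tested among the 14547 genes tested. Il6 was raised 89.9-fold by interleukin-33, while the other 4 members were not called in any comparison. A gene is called where its edgeR p, adjusted over all tested genes, is under 0.05.

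Nearly all ligands of this family, all 3 described here included, are bound by a receptor complex that holds gp130, which activates the JAK kinases and the transcription factor STAT3. Interleukin-6 needs its own receptor chain beside gp130, either on the membrane or as a form shed from other cells, while leukemia inhibitory factor (Lif) uses gp130 with Lifr, and mouse oncostatin M mainly uses gp130 with Osmr. Interleukin-6 drives the acute phase response and shapes T and B cell responses, and oncostatin M acts mostly on stromal, epithelial and endothelial cells. Il6 transcription depends on NF-kB and C/EBP factors, and its short-lived mRNA is destroyed by proteins such as Regnase-1 and the ZFP36 family, which act on sites in its 3′ untranslated region (3′ UTR).

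The libraries were made from splenic eosinophils sorted by high side scatter and the 4get fluorescence, which reports interleukin-4 producing cells, from IL-5tg_4get/C57BL/6 mice. All 4 groups share this background: an interleukin-5 transgene that drives eosinophilia, whose promoter is not given in the sources used here, and the reporter allele. The cells were cultured for 4 h with the rat IgG2a control (isotype), 5 µg/mL of a rat antibody against the inhibitory receptor Siglec-F (antibody), 10 ng/mL of the alarmin interleukin-33 (IL-33), or the antibody and interleukin-33 together (combined), with 3 libraries in each group. The sample titles do not say whether the IL-33 group also held the control antibody. The age of the mice, whether cells of several mice were pooled, and whether libraries came from separate mice are not given in the labels, so p-values measure how far these libraries spread, and that spread may be technical.

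Total counts per library lay between 11686603 and 17137988. In the combined group, libraries 2 and 3 differed from all others, with a count for 15555 and 29990 genes against 19138 to 24485 elsewhere. The share of counts in genes of ribosomal proteins was 3.08% in library 2 and 3.57% in library 3, and lay between 1.52% and 2.43% in the other 10 libraries; library 3 also had the lowest TMM scaling factor (0.861). Mitochondrial genes took 1.10% to 2.86% of counts, with the highest share in IL-33 library 2 and the next in combined library 2 (2.56%). The median SD between libraries over all tested genes, on the log2 scale, was 0.439 in the combined group and 0.215 to 0.283 in the others. The 12 eosinophil markers, which include Siglecf, Ccr3 and Epx, all had counts in every library and summed to 6776 to 17433 CPM (counts scaled to the size of each library).

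On the mouse build mm10 the 5 genes lie on 4 chromosomes, and coordinates in the table equal those of GENCODE M21 for 5 of 5. Il6 (ENSMUSG00000025746) spans chromosome 5 from 30013114 to 30019981 on the plus strand. Osm (ENSMUSG00000058755) spans chromosome 11 from 4236420 to 4241026, and Lif (ENSMUSG00000034394) follows it on the same strand from 4257557 to 4272514, 16530 bases further on with no annotated gene of the table between them. Il6ra (ENSMUSG00000027947) lies on chromosome 3 from 89864059 to 89913196 on the minus strand, and Il6st (ENSMUSG00000021756) on chromosome 13 from 112464070 to 112510086 on the plus strand. The start of Il6ra is overlapped by the antisense gene Gm42809, which had 0 to 5 counts. Since the counting is not stated to use strand, reads from that overlap cannot be assigned to one of them.

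The sequence before the start of Il6 is shown because Il6 was the one member called. It is the 250 bases before the RefSeq start (RefSeq, GRCm38.p6), at chr5:30012864-30013113 on the plus strand, written 5′ to 3′ with motif matches in capitals:

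Il6: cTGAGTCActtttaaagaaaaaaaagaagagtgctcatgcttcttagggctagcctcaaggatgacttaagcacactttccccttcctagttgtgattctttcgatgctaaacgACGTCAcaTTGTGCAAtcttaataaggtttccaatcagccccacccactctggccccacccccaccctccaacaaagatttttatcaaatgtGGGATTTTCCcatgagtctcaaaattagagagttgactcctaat

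The capitals mark, in order, an AP-1 motif (searched as TGANTCA) from base -249 to -243 counted from the start, a CRE core (ACGTCA) from -136 to -131, a C/EBP motif (TTNNGCAA) from -128 to -121, and GGGATTTTCC, one form of the NF-kB consensus, from -44 to -35. Both strands were searched, and no 2 of these matches overlap. Among 32817 RefSeq windows of the same length, 3.9% hold some form of the NF-kB consensus, which was searched with more than one letter allowed at several positions, 6.75% the AP-1 motif, 9.57% the C/EBP motif and 6.46% the CRE core. Promoter entries were found for 4 of 5 members; Osm had none. The Lif window holds one AP-1 match (TGACTCA, from -228 to -222), and the windows of Il6ra and Il6st hold no match to these motifs. The STAT palindrome (TTCNNNGAA), present in 7.01% of windows, is in none of the 4. A match is a run of letters, not an observed binding site.

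The ligand mRNAs also share an AU-rich core, TATTTAT on the sense strand of the 3′ UTR, which is the kind of site that ZFP36 proteins bind. The GENCODE M21 principal transcript holds it 1 time in Il6 (427 bases of 3′ UTR), 3 times in Osm (1017 bases) and 5 times in Lif (3180 bases), and 0 times in both receptor chains, although their 3′ UTRs are 1837 (Il6ra) and 5641 (Il6st) bases long. Of 20718 genes with a 3′ UTR, 26.1% hold at least 1 match, 3.75% hold as many as Osm and 0.743% as many as Lif. One window of 30 bases from each ligand is shown, with the core in capitals, because such sites bear on how long these mRNAs last; the windows of Osm and Lif hold a pair of matches and that of Il6 its single one:

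Il6: actttaagttaatttatgattgaTATTTAT

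Osm: atccgttttaTATTTATaaggccTATTTAT

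Lif: gctgtcTATTTATtactatgtccTATTTAT

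**Figure D1:**
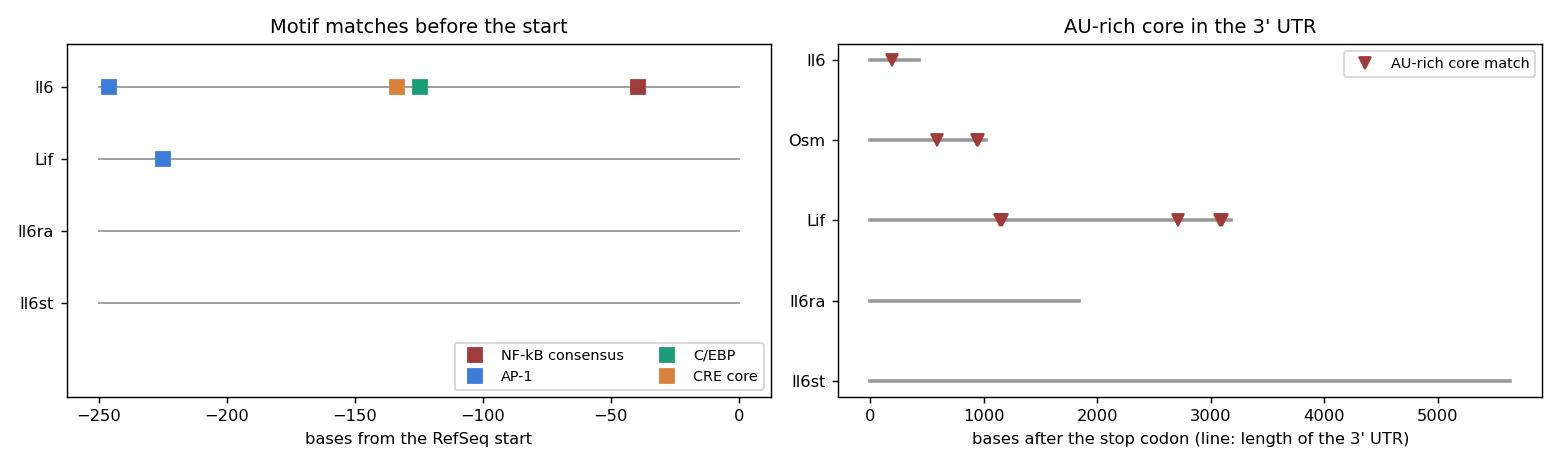
Left, motif matches (squares, coloured by motif) in the 250 bases before the RefSeq start of the 4 members with an entry, by distance from the start. Right, AU-rich core matches (triangles) along the 3′ UTR of each member, by distance from the stop codon in bases. Il6 has 4 promoter matches, and the core is found in the 3 ligands and in neither receptor chain.

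Il6 was low without interleukin-33. It stood at 2.94, 2.07 and 1.88 CPM in isotype libraries 1, 2 and 3 (45, 28 and 24 counts) and at 3.29, 1.85 and 3.20 CPM with the antibody alone. With IL-33 it reached 330, 216 and 79.8 CPM in libraries 1, 2 and 3. In the combined group it reached 387, 145 and 723 CPM, the last of these from 10616 counts, in the library with the highest ribosomal protein share and the most genes with a count; their part in this value was not tested. The lowest library with interleukin-33 thus lay far above the highest library without it, while the isotype and antibody groups overlapped, as did the IL-33 and combined groups.

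Against isotype, IL-33 raised Il6 by a log2 fold change of 6.49 (SE 0.661), a 89.9-fold rise with a 95% interval of 33.6 to 241-fold (edgeR quasi-likelihood test, Benjamini-Hochberg adjusted p = 0.000196). It was the 1 of 5 members called in that comparison, in which 2.21% of all tested genes were called and 1.46% were called higher. Adding the antibody to interleukin-33 gave 7.49 (SE 0.685) against isotype, a 180-fold rise (edgeR adjusted p = 6.04e-05), and 7.22 (SE 0.674) against the antibody alone, a 149-fold rise (edgeR adjusted p = 0.000137). Il6 was again the 1 of 5 members called in each, where 9.88% and 4.42% of tested genes were called. Against isotype 5.47% were called higher and 4.41% lower, and against the antibody 2.70% were called higher. These comparisons share libraries, so their values are not independent. Leaving out any 1 library of the groups compared kept Il6 called in 6 of 6 refits of each comparison, with log2 fold changes of 5.99 to 6.88, 6.84 to 7.90 and 6.56 to 7.63.

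The antibody by itself gave Il6 a log2 fold change of 0.28 (95% interval -1.13 to 1.68, edgeR adjusted p = 1), so changes up to 3.21-fold higher lie inside the interval. The combined group against IL-33 gave 1.00 (SE 0.499, interval -0.07 to 2.08, edgeR adjusted p = 0.310). Group means were 209 ± 125 CPM with IL-33 and 418 ± 291 CPM combined (SD, n = 3), and the 2-fold difference between them was smaller than the spread among libraries. In the interaction, which compares the antibody effect with and without interleukin-33, Il6 had 0.73 (interval -1.04 to 2.50, edgeR adjusted p = 0.769). The sign of the interaction turned with limma voom, to -0.068. Of the 5 members, 0 were called in these 3 comparisons, as were 0% of all tested genes, although 2.54%, 17.4% and 7.91% of genes had an unadjusted p under 0.05; the count of members with such a p was 0 as well. DESeq2 also called 0 of the 5 in each. It gave no adjusted p for Lif and Il6ra with the antibody alone, or for Lif in combined against IL-33.

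**Figure D2:**
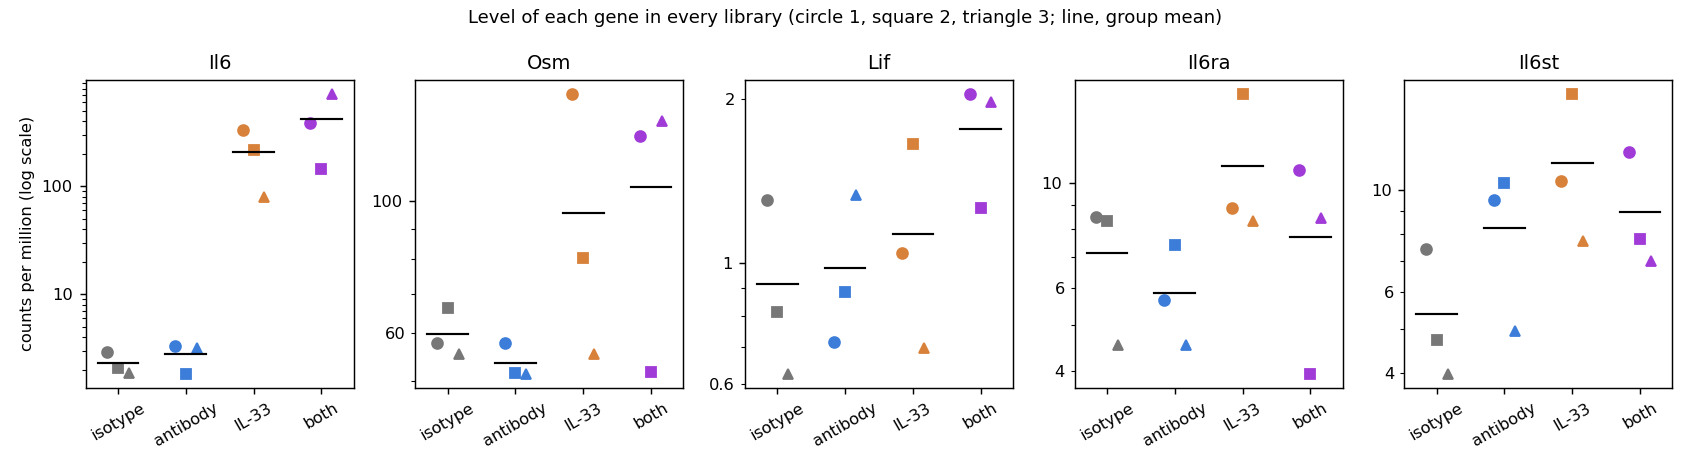
CPM of the 5 members in each library, on a log axis whose range differs between panels; circles, squares and triangles are libraries 1, 2 and 3, and horizontal lines are group means of 3 libraries. Il6 separates the groups with interleukin-33 (79.8 CPM and above) from those without (3.29 CPM and below), while the combined and isotype groups of Osm, Lif, Il6ra and Il6st overlap.

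Osm, the gene of oncostatin M, was detected at a higher level than Il6 in the groups without interleukin-33. It stood at 57.7, 66.3 and 55.4 CPM in isotype libraries 1, 2 and 3 and at 57.8, 51.5 and 51.4 CPM with the antibody. With IL-33 the libraries read 152, 80.3 and 55.3 CPM, and in the combined group 129, 51.7 and 137 CPM. Library 3 of the IL-33 group and library 2 of the combined group stayed at or below the isotype range, so the groups overlapped in every comparison.

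No Osm difference was called. IL-33 against isotype gave a log2 fold change of 0.68 (SE 0.351, edgeR adjusted p = 0.445), the combined group against isotype 0.82 (SE 0.352, adjusted p = 0.154) and the combined group against the antibody 0.98 (SE 0.353, adjusted p = 0.123). Without combined library 2 the values against isotype and antibody were 1.15 and 1.31, with edgeR adjusted p of 0.0323 and 0.0341. With limma voom, IL-33 against isotype was called for Osm at 0.98 (adjusted p = 0.0186), and DESeq2 called the combined group against the antibody at 1.01 (adjusted p = 0.0439). The antibody alone gave -0.16 (interval -0.91 to 0.60), and the interaction 0.30 (interval -0.76 to 1.37), which turned to -0.32 with limma voom.

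Lif, the gene of leukemia inhibitory factor, was close to the limit of detection, with 8 to 29 counts per library. Its levels were 1.31, 0.812 and 0.627 CPM in isotype libraries 1, 2 and 3, 0.715, 0.883 and 1.33 CPM with the antibody, 1.04, 1.65 and 0.698 CPM with IL-33 and 2.05, 1.26 and 1.98 CPM combined. The combined group held the highest values but overlapped the isotype group, since combined library 2 lay below isotype library 1. The largest of its log2 fold changes was 0.93 (SE 0.514) for the combined group against isotype, with an edgeR adjusted p of 0.267 and an interval of 0.888 to 4.11-fold. IL-33 alone gave 0.29 (interval -0.83 to 1.41), the antibody alone 0.09 and the interaction 0.55. The intervals for IL-33 (0.563 to 2.66-fold) and the antibody (0.488 to 2.32-fold) both hold a 2-fold rise, which is therefore not excluded.

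Il6ra, the chain that lets a cell bind interleukin-6 itself, read 8.49, 8.34 and 4.55 CPM in isotype libraries 1, 2 and 3 and 5.65, 7.39 and 4.54 CPM with the antibody. With IL-33 it read 8.88, 15.5 and 8.31 CPM, and combined 10.7, 3.95 and 8.45 CPM. Library 2 was the highest in the IL-33 group and the lowest in the combined group. The summed T cell and ILC2 markers were also highest in IL-33 library 2 (151 CPM, against 51.6 and 35.1 in libraries 1 and 3) and lowest in combined library 2 (35.8, against 51.3 and 46.2). Dendritic cell markers were likewise highest in IL-33 library 2 (568 CPM) and lowest in combined library 2 (449 CPM). B and plasma cell markers were highest in library 2 of both groups (1231 and 873 CPM). The remaining marker sums were highest in IL-33 library 1 among the IL-33 libraries. They too were lowest in combined library 2 among the combined libraries, so every list but that of B and plasma cells was lowest there. The log2 fold change of Il6ra was 0.61 (SE 0.377, edgeR adjusted p = 0.568) for IL-33 against isotype, -0.29 for the antibody, 0.11 for the combined group against isotype and -0.50 for the combined group against IL-33, with an interaction of -0.21. None was called. Leaving out combined libraries 2 and 3, so that library 1 alone stood for the combined group, gave an interaction of 0.27.

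Il6st, which encodes gp130, stood at 7.44, 4.73 and 4.00 CPM in isotype libraries 1, 2 and 3 and at 10.4, 16.1 and 7.75 CPM with IL-33. Those groups do not overlap, as for 24.1% of all tested genes, and the difference was 1.08 (SE 0.365, 95% interval 1.23 to 3.64-fold, edgeR adjusted p = 0.169). The labels state no block, but same-numbered libraries of these 2 groups had weakly correlated deviations (Pearson's r of 0.241, 0.239 and 0.167). With the replicate number as a block and only these groups fitted, called the paired fit below, the value was 1.08 (edgeR adjusted p = 0.0313). The block over all 12 libraries gave an edgeR adjusted p of 0.0694, the unblocked fit of only these groups 0.103 and DESeq2 0.0563, none of them a call. It was called by limma voom at 1.14 (adjusted p = 0.0140). IL-33 library 2, the highest for Il6st, was also the highest in T cell and ILC2 markers, of which 12 of 13 were above isotype with IL-33 (median 0.48, 0 called) and 0 of 13 in the combined group (median -0.42). The part of T cells, ILC2 or other cells in the Il6st and Il6ra values was not tested.

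With the antibody alone Il6st read 9.51, 10.4 and 4.94 CPM and combined 12.1, 7.82 and 7.02 CPM, so both overlapped isotype. The log2 fold changes were 0.61 (SE 0.365, edgeR adjusted p = 1) and 0.73 (SE 0.365, adjusted p = 0.220). Against IL-33 the combined group had -0.35. The value was 0.094 when combined libraries 2 and 3 were left out, which keeps only 1 combined library. The interaction of -0.96 (interval -2.06 to 0.14, edgeR adjusted p = 0.583) was the most negative among the members and was not called.

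**Figure D3:**
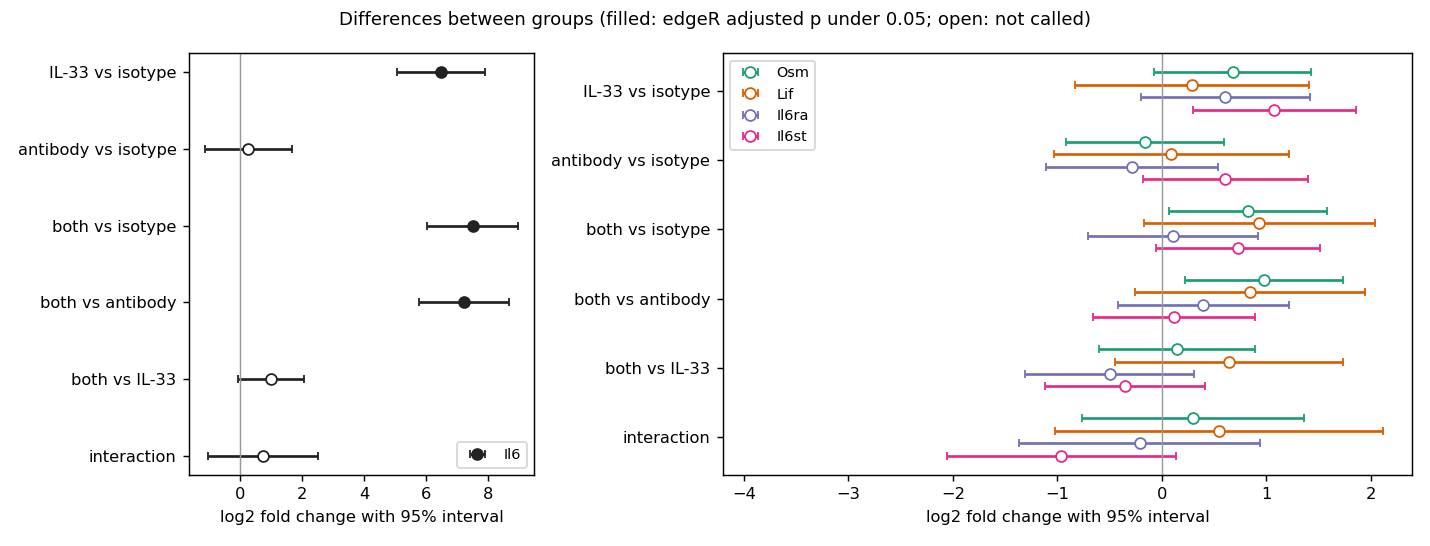
Log2 fold changes (points) with 95% intervals (bars) from edgeR for the 6 comparisons, Il6 on the left and the other 4 members on the right, on axes of different range. Filled points, adjusted p under 0.05, are found only for Il6 in the 3 comparisons that add interleukin-33.

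Levels of different genes were compared as RPKM, here the CPM divided by the gene length in kilobases. In isotype the order was Osm at 26.3 ± 2.53 RPKM (SD, n = 3), Il6 at 0.945 ± 0.232, Il6ra at 0.825 ± 0.259, Il6st at 0.485 ± 0.164 and Lif at 0.210 ± 0.0806 RPKM. Osm was 27.8 times Il6 there, with no overlap between their libraries. Il6, Il6ra and Il6st were neighbours whose libraries overlapped, and Il6st lay above Lif without overlap. With the antibody the order was the same except that Il6st (0.745 RPKM) and Il6ra (0.678 RPKM) changed places, and their libraries overlapped.

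With interleukin-33 the order of the ligands turned. Il6 led at 85.9 ± 51.6 RPKM in the IL-33 group and 172 ± 120 RPKM in the combined group, followed by Osm at 42.1 ± 22.0 and 46.5 ± 20.6 RPKM. Within each of these libraries Il6 was above Osm (3 of 3 in both groups), by 2.04 and 3.70 times between group means, although their ranges over libraries overlapped. Osm remained 33.4 and 52.3 times the next gene, Il6ra, and Il6ra and Il6st (1.26 and 1.03 RPKM with IL-33, 0.890 and 0.808 RPKM combined) overlapped. Lif was last in all groups, at 0.260 and 0.405 RPKM in these.

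The libraries of each interleukin-33 group differed among themselves, and Il6 and Osm differed in the same order. In the IL-33 group library 1 was highest and library 3 lowest for both, with a ratio of highest to lowest of 4.14 for Il6 and 2.74 for Osm. Combined library 3 was highest and combined library 2 lowest for both genes, with ratios of 5.00 and 2.64. On the log2 scale the SD of Il6 was 1.05 with IL-33 and 1.17 combined, against 0.319 in isotype. Lif, Il6ra and Il6st had another order in the IL-33 group, with library 2 highest and library 3 lowest. Across the 12 libraries, which fall into the 4 treatment groups, Pearson's r of log2 CPM was 0.75 for Il6 and Osm, 0.66 for Il6ra and Il6st, and 0.39 to 0.64 for the other pairs, as a description.

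The genes most like each member were found by Pearson's r over the 12 libraries among 8647 candidate genes (8648 for Lif). Closest to Il6 were Agpat5, an acyltransferase of phospholipid synthesis (r = 0.995), Nfkbia, the inhibitor of NF-kB (0.994), and Dgat2, the enzyme of the last step of triglyceride synthesis (0.994). Dgat2 went from 6.35 ± 0.277 CPM in isotype to 189 ± 103 CPM with IL-33 and 267 ± 121 CPM combined (SD, n = 3), and Agpat5 from 38.6 ± 2.57 to 144 ± 37.6 and 202 ± 57.6 CPM. These 3 genes had the library order of Il6 in both groups with interleukin-33. They were picked for their r with Il6 over the same libraries, so that order follows in part from the choice. Differences between the treatment groups also enter r. In isotype the libraries from high to low were 1, 2, 3 for Il6, 3, 2, 1 for Nfkbia and 3, 1, 2 for Agpat5 and Dgat2. Closest to Osm were Hnrnpll, a regulator of splicing (0.951), Morf4l2 (0.941) and Fcho1, a protein of clathrin coat assembly (0.923). Their range between groups was small: Hnrnpll went from 36.4 ± 2.94 in isotype to 43.2 ± 7.63 CPM with IL-33.

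The genes most like Lif were Cops2 (0.899), Gstm1 (0.890) and Slc31a2 (0.863), and for Il6ra Slc31a1, a copper transporter (0.916), Epb41l2 (0.902) and Phykpl (0.876). For Il6st they were Slc30a4, a zinc transporter (0.943), Clic4 (0.885) and Slc7a5, an amino acid transporter chain (0.874).

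**Figure D4:**
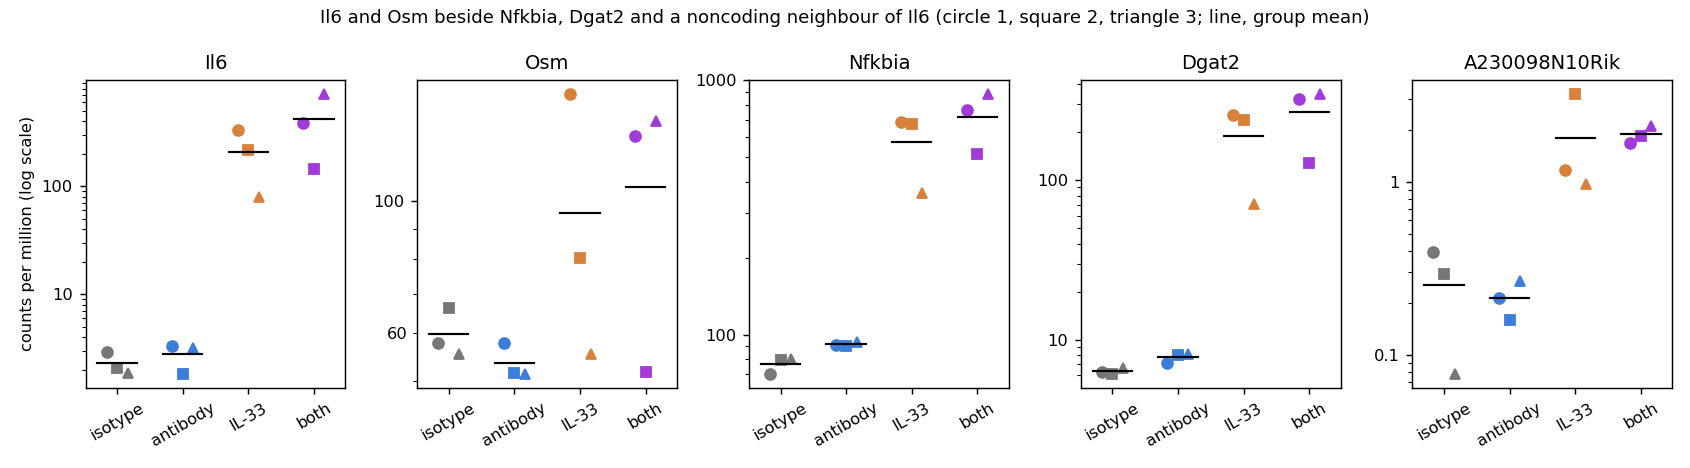
CPM in each library of Il6 and Osm, of Nfkbia and Dgat2 (2 of the 3 genes most like Il6) and of the noncoding gene A230098N10Rik, on log axes of different range; symbols as circles, squares and triangles for libraries 1, 2 and 3, lines as group means. For the first 4 genes library 1 is the highest and library 3 the lowest with IL-33, and library 2 is the lowest in the combined group.

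A noncoding gene beside Il6 was also higher with interleukin-33. A230098N10Rik, a lincRNA on the minus strand whose start lies 4315 bases upstream of Il6 (chromosome 5, 29996141 to 30008798), was chosen after its values were seen. It had 6, 4 and 1 counts in isotype libraries 1, 2 and 3, 3, 2 and 4 with the antibody, 18, 41 and 14 with IL-33 and 23, 22 and 31 combined, and the groups with and without interleukin-33 did not overlap. The log2 fold change was 2.74 (SE 0.661, edgeR adjusted p = 0.0479) for IL-33 against isotype, 2.81 (adjusted p = 0.0173) for the combined group against isotype and 3.07 (adjusted p = 0.0241) against the antibody. For the first of these, the paired fit with the replicate block and only the 2 groups gave 2.70 (edgeR adjusted p = 0.0255) and the block over all libraries 2.67 (adjusted p = 0.0723), and only the refit without IL-33 library 3 kept that call (1 of 6, adjusted p up to 0.231). The call against isotype for the combined group was lost without isotype library 2 or 3, and that against the antibody without any 1 antibody library or combined library 3, with an adjusted p of at most 0.0797 and 0.113.

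Of the other ligands of the family, 3 were tested, and Ebi3, the shared subunit of interleukin-27 and interleukin-35, was called. It stood at 73.0, 76.3 and 73.8 CPM in isotype libraries 1, 2 and 3, 164, 156 and 118 CPM with IL-33 and 184, 217 and 280 CPM combined, with no overlap with isotype. Its log2 fold change was 0.97 (SE 0.177, edgeR adjusted p = 0.0101) with IL-33, 1.61 (adjusted p = 0.000164) combined and 1.29 (adjusted p = 0.00160) for combined against the antibody. Of all tested genes 1.46%, 5.47% and 2.70% were called higher in these comparisons. The IL-33 call was lost when isotype library 1, isotype library 3 or IL-33 library 1 was left out, at an adjusted p of at most 0.0621. Il27, which encodes the partner subunit p28, had -0.28 and 0.36 against isotype, and Clcf1 -0.41 and -0.73, without a call. Il11, Il31, Cntf, Ctf1 and Ctf2 had too few counts to be tested. Medians of the 3 tested ligands were -0.28 with IL-33 and 0.36 combined, beside -0.01 and -0.05 over all genes.

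Of the other receptor chains, 3 of 6 were tested and 0 were called in any of the 6 comparisons. Lifr, the partner of gp130 for leukemia inhibitory factor, was present at 58.3 ± 2.08 CPM in isotype, 67.2 ± 28.9 with IL-33 and 49.3 ± 14.8 combined (SD, n = 3). Il27ra, the receptor chain for interleukin-27, had 0.65 and 0.17 against isotype, and Il11ra1 -0.58 and -0.52, for IL-33 and the combined group. Osmr, the oncostatin M receptor chain, was not tested; its mean was 0.0218 CPM in isotype, 0.0262 with IL-33 and 0.295 combined. Cntfr and Il31ra were not tested either. List medians were 0.20 and -0.24.

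The genes of receptor shedding, the proteases Adam10 and Adam17 that release the interleukin-6 receptor from the membrane and Rhbdf2, whose product iRhom2 is an inactive rhomboid that serves as a cofactor of ADAM17, were all tested. Adam17, the main sheddase in inflammation, went from 88.3, 77.8 and 86.1 CPM in isotype to 193, 122 and 146 CPM combined. It was the 1 of 3 called in the combined group against isotype (log2 fold change 0.87, edgeR adjusted p = 0.00885) and against the antibody (0.68, adjusted p = 0.0472). Of all tested genes 5.47% were called higher against isotype and 2.70% against the antibody. The Adam17 call against the antibody was lost without any 1 antibody library or combined library 3 (adjusted p up to 0.170). With IL-33 alone Adam17 had 0.66 (edgeR adjusted p = 0.0776). With the replicate number as a block in all libraries, 1 of the 3 genes was called there, as were 364 of all tested genes. Adam10 and Rhbdf2 were not called, and the list medians were 0.29 with IL-33 and 0.27 combined, beside -0.01 and -0.05 over all genes.

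Of the genes that carry the signal from gp130, 9 of 10 were tested (all but Gab1) and 0 were called in any comparison, with medians of 0.18 with IL-33 and 0.01 combined. Jak1, the main kinase of gp130, had 0.18 and 0.01, and Stat3 0.19 and -0.05. In the paired fit of IL-33 and isotype alone, 2 of the 9 were called, as were 1212 of the 14547 tested genes. Without combined library 1 the combined group had 3 calls against isotype and 4 against the antibody. Among all tested genes, refits without 1 library called up to 2971 and 2836 in these comparisons. Stat3 stood at 250 ± 9.83 CPM in isotype and 285 ± 5.03 with IL-33.

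The inhibitors of the pathway were all tested, and 0 of 8 were called with IL-33, with a median of 0.35. The paired fit called 2 of them, and 1212 of the 14547 tested genes. In the combined group against isotype 3 rose and 1 fell, with a median of 0.66. Over all tested genes the medians were -0.01 and -0.05, and 2.21% and 9.88% were called. The phosphatases Ptpn6 and Ptpn2 rose by 0.77 and 0.74, Socs3, the STAT3-induced inhibitor of gp130, by 0.75 (edgeR adjusted p = 0.0182), and Pias3, an inhibitor of STAT3, fell by 0.67. Socs3 stood at 70.9, 69.2 and 56.9 CPM in isotype and 114, 92.5 and 125 CPM combined. Calls were lost for Socs3 without isotype library 3 or combined library 3 (adjusted p of 0.0873 and 0.0597) and for Ptpn6 and Pias3 without isotype library 1 (0.0567 and 0.0663). The count of 4 became 2 without isotype library 1 and 7 without combined library 1, while refits without 1 library called 526 to 2971 of all tested genes. Against the antibody, Socs1 was the 1 of 8 called (1.04, edgeR adjusted p = 0.0314). That call was lost in 5 of 6 refits, all but the one without combined library 1 (adjusted p up to 0.116). With only library 1 kept in the combined group, Socs1 had 0.36.

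Genes known to be induced through STAT3 were tested in 15 of 17 cases, with Timp1 and Saa3 too low. With IL-33 2 rose, 13 were not called and the median was 0.54, where 1.46% of all tested genes rose and their median was -0.01. These were Bcl2l1, the survival gene of BCL-XL, by 1.31 (edgeR adjusted p = 0.000577) and Bcl3, an IkB family cofactor, by 1.02 (adjusted p = 0.00695, and 0.0529 without isotype library 1). Bcl2l1 stood at 96.0, 123 and 99.8 CPM in isotype, 278, 294 and 217 CPM with IL-33 and 316, 364 and 350 CPM combined. In the combined group against isotype 9 rose and 6 were not called, with a median of 0.73, where 5.47% of all tested genes rose and their median was -0.05. Batf, a transcription factor of the AP-1 family, rose by 1.99 and Bcl2l1 by 1.69. Vegfa, a vascular growth factor, rose by 1.64, Cebpb, a C/EBP factor, by 1.33 and Junb, an AP-1 subunit, by 1.25. Several members of this list, such as Bcl3 and Bcl2l1, are also known to be induced through NF-kB.

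The 9 calls became 4 without isotype library 1 or 3 and 6 without isotype library 2, and the 2 calls with IL-33 became 1 without isotype library 1 and 4 without IL-33 library 3 or with combined libraries 2 and 3 left out of the fit. In the paired fit with the replicate block, IL-33 gave 8 calls, and 1212 among all 14547 tested genes. The Vegfa call was kept only without combined library 2 (adjusted p up to 0.125), the Cebpb call was lost without isotype library 1 or 3 (0.0634 and 0.0564) and the Junb call without isotype library 1 (0.0559). Against the antibody 6 of 15 rose (2.70% of all tested genes), with a median of 0.69, led by Batf at 1.87, Cebpb at 1.51 and Junb at 1.27. That count became 2 to 3 without any 1 antibody library or combined library 3. Of these refits, each one lost Cebpb and Junb (adjusted p up to 0.0678 and 0.0896). With only library 1 kept in the combined group, Batf had 1.40, Cebpb 1.36 and Junb 1.15 against the antibody.

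Regulators of the Il6 transcript were all tested, and 5 of 18 rose with IL-33, with a median of 0.54 (1.46% and -0.01 over all tested genes). Nfkbiz, a nuclear cofactor of NF-kB needed for Il6 transcription, went from 34.3 to 37.7 CPM in the isotype libraries to 353, 271 and 138 CPM with IL-33 (log2 fold change 2.83, SE 0.371, edgeR adjusted p = 0.000921). Zc3h12a, which encodes Regnase-1, the nuclease that cuts Il6 mRNA, went from 79.4, 95.7 and 103 CPM to 366, 415 and 291 CPM (1.95, SE 0.184, edgeR adjusted p = 0.000154). Its relative Zc3h12c rose by 2.87, and Tnip1, a partner of the NF-kB inhibitor A20, by 1.97. The transcription factor gene Atf3 rose by 2.05 (adjusted p = 0.0320), a call kept only without IL-33 library 3 (1 of 6 refits, adjusted p up to 0.157). Without that library 8 of the 18 were called, and 8 as well with combined libraries 2 and 3 left out of the fit. The paired fit with the replicate block called 10 of them, and 1212 among all 14547 tested genes.

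Not called with IL-33 were Zfp36 (0.40), which encodes tristetraprolin, Arid5a (0.68), which stabilizes Il6 mRNA, Rela (0.34) and Cebpb (0.54). In the combined group 8 of 18 rose against isotype (5.47% of all tested genes), with a median of 0.62, led by Zc3h12c at 3.21, Nfkbiz at 2.92, Atf3 at 2.41, Zc3h12a at 1.93 and Tnip1 at 1.90. Nfkbiz stood at 407, 133 and 272 CPM in combined libraries 1, 2 and 3, and Zc3h12a at 379, 347 and 336 CPM. There Il6 was highest in library 3 and both regulators in library 1, while Il6 and Nfkbiz were lowest in library 2. With IL-33, Nfkbiz had the library order of Il6, and Zc3h12a was highest in library 2. The part of these regulators in the Il6 level was not tested. The count became 5 without isotype library 1 or 3. Against the antibody 7 of 18 rose (2.70% of all tested genes), with a median of 0.61, and 4 did without any 1 antibody library or combined library 3. Atf3 (1.66, adjusted p = 0.0499) was lost in each of these 4 (adjusted p up to 0.189).

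With the antibody alone, in the combined group against IL-33 and in the interaction, edgeR called 0 genes of these 7 lists, as it called 0 of all tested genes. With the antibody alone DESeq2 and limma voom called 0 in each list as well. For the combined group against IL-33, DESeq2 called 1 of the other ligands, 2 of the genes induced through STAT3 and 1 regulator of Il6. There, edgeR refits without 1 library called up to 2 ligands, 3 signal transducers, 2 inhibitors, 2 genes induced through STAT3 and 3 regulators. Among all tested genes they called up to 2212. In the interaction such refits called up to 2 signal transducers and up to 1 inhibitor, STAT3-induced gene or regulator, with up to 407 of all tested genes.

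**Figure D5:**
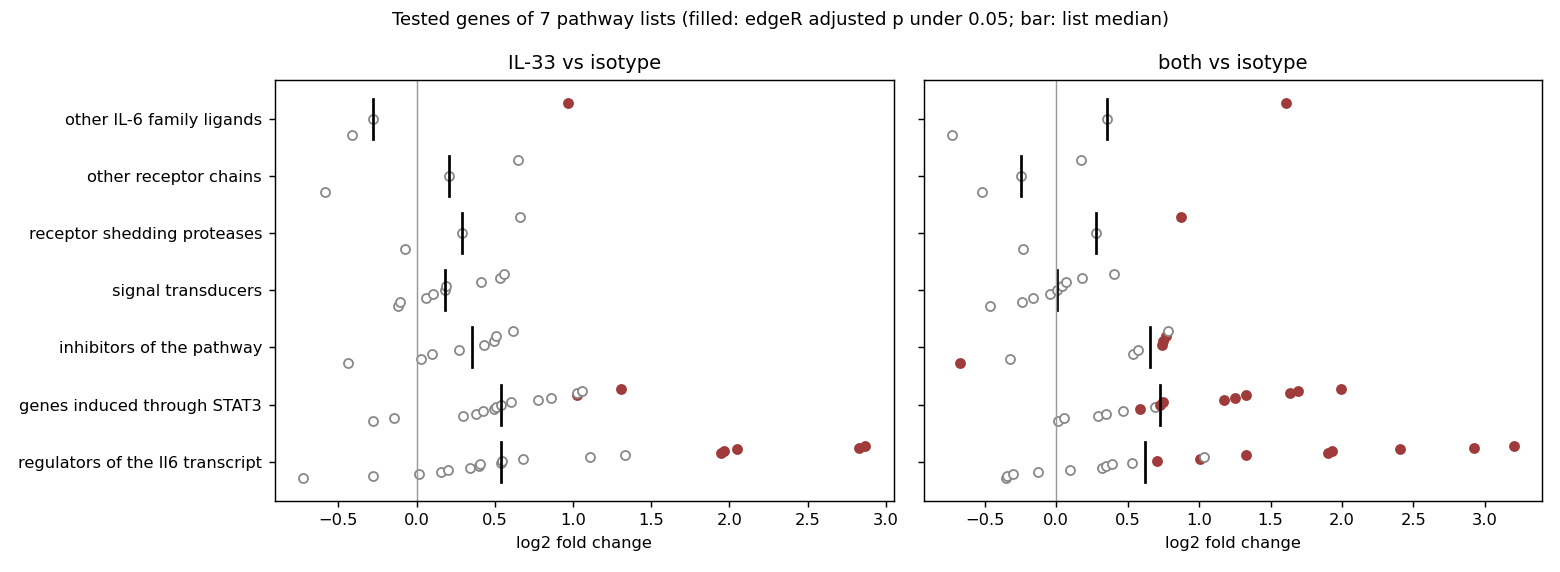
Log2 fold change of each tested gene of the 7 lists (points, spread vertically for visibility) for IL-33 and for the combined group against isotype, with each list's median as a bar; filled points are called by edgeR. The 9 and 8 called genes of the lowest lists on the right stand beside 2 and 5 on the left, where the share called among all tested genes is also higher on the right (9.88% against 2.21%), and the signal transducers have none on either side. Some genes are in more than 1 list: on the right, Cebpb is called in both of the lowest lists, and Socs3 among the inhibitors and the genes induced through STAT3.

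Some summed levels of markers of other cells were higher in groups with interleukin-33 than in isotype. The summed level of 14 monocyte and macrophage markers was 597 to 667 CPM in isotype and 657 to 873 with the antibody, against 914 to 1215 with IL-33 and 1089 to 1495 combined. Of these markers 11 were tested, and Csf1r alone was called (0.96, edgeR adjusted p = 0.00603, with IL-33). Csf1r went from 433 ± 30.8 to 844 ± 87.7 CPM (SD, n = 3) and made up most of the sum, while Marco was at or near 0 in all groups. Of the 11 tested markers, 4 were above isotype with IL-33 (list median -0.27) and 7 combined (list median 0.55). The 8 stroma and endothelium markers summed to 295 to 336 CPM in isotype and 492 to 546 combined. Only 3 of them were tested, of which Acta2 and Pecam1 were called higher there. Col1a1, Col1a2, Col3a1, Cdh5 and Kdr had too few counts to be tested. Of all tested genes 1.46% were called higher with IL-33 and 5.47% in the combined group against isotype.

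Among the 8 dendritic cell markers the gene Batf3 was called with IL-33 and combined, while the sums overlapped (332 to 561 CPM in isotype, 431 to 568 with IL-33). The sums of 11 neutrophil markers (980 to 2177 in isotype, 478 to 1553 with IL-33), of 13 T cell and ILC2 markers (40.5 to 74.4 and 35.1 to 151), of 11 B and plasma cell markers (723 to 1111 and 617 to 1231) and of 11 basophil and mast cell markers (150 to 192 and 158 to 231 CPM) overlapped between isotype and IL-33. Called among these and the eosinophil markers were Cd200r3, lower with IL-33 (-1.50), and Adgre1, which encodes F4/80, higher with IL-33 (0.79) and in the combined group against isotype (1.08) and against the antibody (0.70). With IL-33 Adgre1 was the 1 of 12 eosinophil markers above isotype (list median -0.36, 0 called lower), while 8 of 12 were above isotype in the combined group (median 0.14). The part of these other cells in the Il6 and Osm values was not tested. In bulk libraries a change in the number of cells of a type and a change in RNA per cell cannot be told apart.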

How the data were processed

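Bulk RNA was measured in 12 libraries, 3 in each of 4 groups. The authors deposited raw counts per gene, used here; per the submitters' processing notes the tools include fastp, STAR 2.6.1d, featureCounts 1.5.0-p3, FastQC 0.11.8 and DESeq2, with the build mm10. Counting of strand and of reads with several positions is not given in the sources used here. Deposited normalized values were not used. Genes passing filterByExpr were tested with edgeR 4.0.16 (R 4.3.3; TMM, one quasi-likelihood fit over 12 libraries, no block), with Benjamini-Hochberg adjustment over 14547 genes and a call under 0.05. CPM uses TMM-scaled totals, likeness log2 CPM with a prior count of 2, and intervals are 95%.

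Members and lists were chosen with earlier results of these data known. The 5 members are always named, with up to 5 called genes per list and comparison by size of change. Named too are the 3 tested genes of at least 5 mean CPM most like each member. That search left out pseudogenes and genes with provisional symbols, such as those starting in Gm or ending in Rik. Alternatives were DESeq2 1.42.0, limma 3.58.1 (voom with quality weights), no filter, fewer groups or libraries, RPKM by raw totals and a replicate block. The labels' replicate numbers were checked for pairing by the correlation of deviations of same-numbered libraries: it exceeded 0.1 in all 3 pairs only for isotype and IL-33 (0.241, 0.239 and 0.167), so that block is given beside results it changes. The labels state no block. Libraries with different numbers were not compared, so the check cannot tell pairing from luck. The script was tested on simulated data. One item of the lists is not reported here.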

Additional observations from a re-analysis of the deposited data

How the results depend on the processing

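Il6 kept its direction with interleukin-33 under every alternative run for the 3 comparisons that add it. It kept its call wherever both groups compared held 2 or more libraries. Without combined libraries 2 and 3 only library 1 stands for the combined group, so counts of calls for that group are not given. Counts of called genes moved more. Against isotype, IL-33 gave 322 calls, 806 with DESeq2, 2089 with limma voom, 683 with no expression filter, 776 leaving out combined libraries 2 and 3, 1212 with the replicate block and only the groups compared (364 with the block in all libraries) and 117 to 521 leaving out 1 library. For the antibody, 0 became 12, 10, 70 and 1 in the first 4 of these settings, 20 with only the groups compared, 52 with their block and 0 to 0 leaving out 1 library. Combined against isotype, 1437 became 2404 (DESeq2), 691 (only the groups compared), 697 (without combined libraries 2 and 3) and 526 to 2971 leaving out 1. Combined against IL-33, 0 became 470 (DESeq2), 786 (no filter) and 0 to 2212, the last without combined library 1. Combined against antibody, 643 became 1627 (DESeq2), 424 (voom), 1600 (no filter), 230 (only the groups compared), 196 (without combined libraries 2 and 3), 372 (their block) and 128 to 2836. The interaction went from 0 to 3 (DESeq2), 86 (no filter) and 0 to 407. List counts for IL-33 against isotype went from 2 (STAT3), 5 (Il6 regulators) and 0 (inhibitors) to 5, 8 and 3 with DESeq2, 11, 12 and 5 with voom, 6, 8 and 0 with no filter and 8, 10 and 2 with the replicate block and only the groups compared; the inhibitors went from 4 to 7 with DESeq2, RLE scaling or the block in all libraries (combined against isotype) and from 1 to 3 with DESeq2 (against antibody).

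Calls gained by members were, with no expression filter, Osm at 0.69 (adjusted p = 0.0353) and Il6st at 1.07 (0.0320) for IL-33 against isotype, Osm at 0.80 (0.00257) and 0.95 (0.000233) for combined against isotype and antibody, and Il6 at 0.96 (0.000604) for combined against IL-33; with voom, Osm at 0.98 and Il6st at 1.14 for IL-33 against isotype; with DESeq2, Osm at 1.01 for combined against antibody; and with the replicate block and only the groups compared, Il6st at 1.08. Signs turned, without a call, for Osm with voom in combined against IL-33 (-0.39) and the interaction (-0.32). With voom they also turned, without a call, for Il6 in the interaction (-0.068) and Il6st in combined against antibody (-0.015). With only library 1 left in the combined group, Il6st turned in combined against IL-33 (0.094) and Il6ra in the interaction (0.27). Leaving out 1 library, values spanned 0 for Lif with IL-33 (-0.062 to 0.67) and the antibody (-0.20 to 0.45), Il6ra combined against isotype (-0.20 to 0.42) and in the interaction (-0.52 to 0.14), Osm combined against IL-33 (-0.13 to 0.64) and Il6st combined against antibody (-0.15 to 0.31). Osm spanned 0.18 to 0.96, 0.59 to 1.15 and 0.75 to 1.31 in the comparisons that add interleukin-33. The cause of these moves was not tested. RPKM by raw totals moved 0 of 20 member levels beyond 1 SD. Lif had 8 to 29 counts per library, the fewest of the members in each group.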
